A study of Homo sapiens with 6 samples.

Results

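Of the 60498 genes in the deposited table, 8 were chosen by symbol and were each found in 1 row: MX1, MX2, RSAD2 (viperin), CMPK2, BST2 (tetherin), IFITM1, IFITM2 and IFITM3, which encode antiviral restriction factors. All 8 averaged at least 10 counts per library, as did 15126 genes in all, and these were the genes tested. RNA-seq was carried out on SKOV3, an established human ovarian cancer cell line and on edited derivatives of it. In the parent, STING1 is heterozygous, with a WT copy and a HAQ copy (WT/HAQ). In one derivative the HAQ copy was removed (WT/-), and in the other the WT copy (HAQ/-). HAQ is a common STING1 haplotype with 3 amino acid changes. Each line gave 1 control library and 1 library from cells given cGAMP, the cyclic dinucleotide that binds STING1, at 10 µg/mL for 30 min in a permeabilization buffer with digitonin, followed by 4 h of rest. Each edited line is a single clone made with paired CRISPR guides, so the allele and the clone cannot be told apart, and how the control cells were handled is not described in the sources used here. With 1 library per condition, intervals below are 95% intervals that cover counting error only, and they say nothing of the spread between cultures.

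Viral nucleic acid or misplaced DNA leads cells to make type I and type III interferons, which act through receptor-bound kinases and transcription factors such as IRF9 to raise a large set of interferon-stimulated genes. The 8 genes act at different steps of a viral life cycle. IFITM proteins hinder fusion of the viral envelope with the cell membrane, and MX proteins are dynamin-like GTPases that trap incoming viral cores. Viperin makes a nucleotide analogue that ends viral RNA chains, CMPK2 is a mitochondrial nucleotide kinase, and tetherin holds budding particles at the cell surface. STING1 starts this route through the kinase TBK1 and the factor IRF3, which can also act directly on some of these promoters.

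The libraries held 12444791 to 17608427 counts, and the 8 genes together took 0.0461% to 0.356% of them. STING1, which the table lists under its older symbol TMEM173, had normalized counts of 669 in the WT/HAQ control library and 1780.2 in its cGAMP library, against 353 and 553 in WT/- and 213 and 403 in HAQ/-. Of 9 markers of the line, ERBB2, KRT7, KRT8, KRT18 and PAX8 were at 2068 counts or more in every library, EPCAM was at 340 to 833, MUC16 and WT1 were at 72 or fewer, and the keratin gene KRT19 had 3793 and 6369 counts in the parent libraries and 276 to 474 in the clones. Of 8 markers of leukocytes, endothelium and fibroblasts, 6 were at 19 counts or fewer in all libraries, COL1A1 was at 839 to 1123, and COL3A1 was at 0 or 1 except in the cGAMP libraries of WT/HAQ and HAQ/-, with 51 and 41. The part of these differences in the results was not tested.

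All 8 genes were higher with cGAMP in all 3 lines. The sizes fell into separate ranges, from 21.2-fold to 429-fold for MX1, MX2, RSAD2 and CMPK2, through 5.61-fold to 14.7-fold for IFITM1, to 1.39-fold to 2.57-fold for BST2, IFITM3 and IFITM2. At a threshold of 1.5-fold, 7 of the 8 were raised in WT/HAQ, where 12.8% of all tested genes were, 7 in WT/-, where 11.9% were, and 6 in HAQ/-, where 6.75% were. The gene below the threshold in every line was IFITM2, and in HAQ/- IFITM3 also fell short at 1.48-fold. The median log2 fold of the 8 genes was 5.19 in the parent, 4.08 with the WT allele alone and 3.45 with the HAQ allele alone, beside medians of -0.01, 0.00 and -0.01 over all tested genes. In bulk RNA, fewer responding cells and less RNA per cell cannot be told apart.

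**Figure D1:**
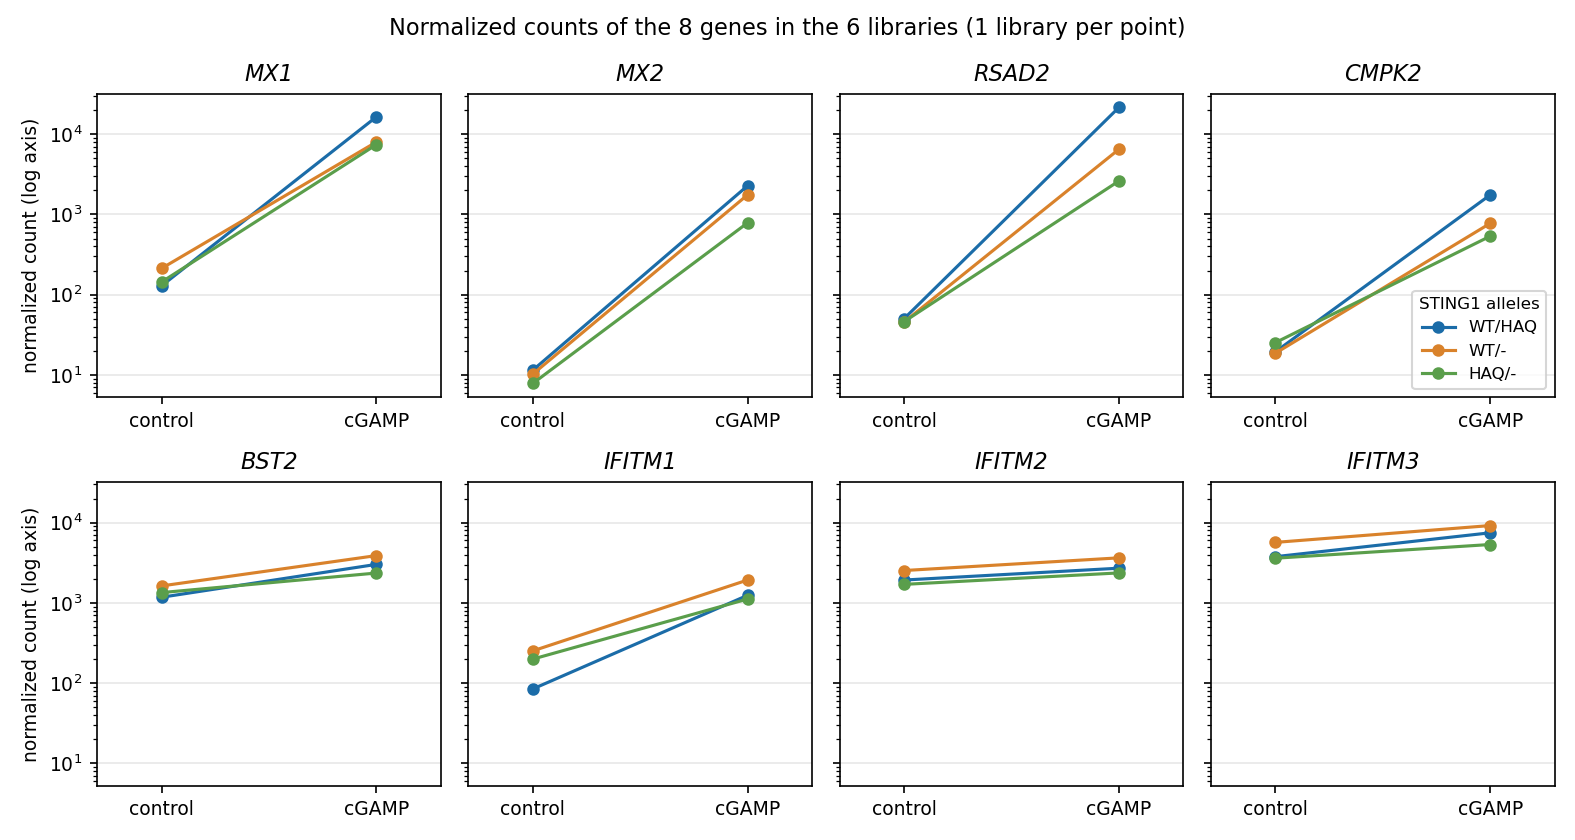
Normalized counts (log axis) of each gene in the control and the cGAMP library of the WT/HAQ, WT/- and HAQ/- lines, with 1 library per point and lines joining the libraries of a line. MX1, MX2, RSAD2 and CMPK2 start at 7.85 to 213 and end at 536 to 21619, while IFITM2, IFITM3 and BST2 already stand at 1177 or more in the control libraries.

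**Figure D2:**
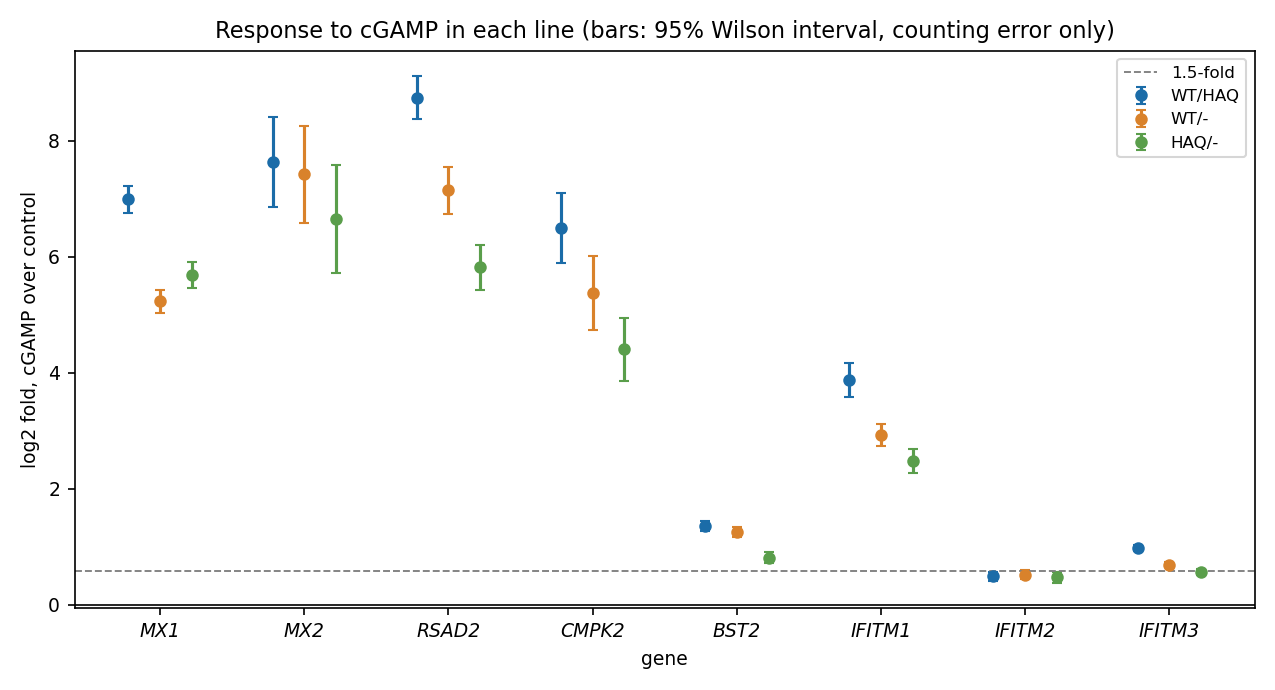
log2 fold of the cGAMP over the control library for each gene and line, with 95% Wilson intervals for counting error; the dashed line marks 1.5-fold. RSAD2 spans the range from 5.82 in HAQ/- to 8.75 in WT/HAQ, whereas the 3 values of IFITM2 lie between 0.47 and 0.52.

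MX1 (ENSG00000157601) and MX2 (ENSG00000183486) lie next to each other on the plus strand of chromosome 21 of GRCh38, at 41420020 to 41470071 and 41361999 to 41409393 in GENCODE release 44. MX1 is cytoplasmic and is known for blocking influenza viruses, and MX2 sits at the nuclear envelope and restricts lentiviruses. MX1 had normalized counts of 129 and 16470.4 in the control and cGAMP libraries of WT/HAQ, 213 and 8000.4 in WT/-, and 144 and 7423 in HAQ/-. The treated parent library therefore stood above both treated clones, which were close to each other. The folds were 128 in WT/HAQ (interval 108 to 150.2), 37.6 in WT/- (32.9 to 42.9) and 51.6 in HAQ/- (44.2 to 60.2). MX1 was thus the member whose fold was larger in HAQ/- than in WT/-, with a log2 difference of WT/- minus HAQ/- of -0.46 (-0.75 to -0.16). Its control level was also 1.65 times as high in WT/- as in WT/HAQ (1.34 to 2.03). TMPRSS2 and AP001610.5 overlap the MX1 span on the other strand and had at most 11 and 14 counts in any library.

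Of 3 RefSeq windows of MX1, the first is shown because its matches to the interferon-stimulated response element (ISRE), a DNA element through which interferon acts on its target genes, fall just after the start site. The window holds 250 bases before to 50 bases after a RefSeq start site (GRCh38.p14, chr21:41420308-41420607, plus strand), and capitals mark the ISRE core letters GAAANNGAA.
MX1: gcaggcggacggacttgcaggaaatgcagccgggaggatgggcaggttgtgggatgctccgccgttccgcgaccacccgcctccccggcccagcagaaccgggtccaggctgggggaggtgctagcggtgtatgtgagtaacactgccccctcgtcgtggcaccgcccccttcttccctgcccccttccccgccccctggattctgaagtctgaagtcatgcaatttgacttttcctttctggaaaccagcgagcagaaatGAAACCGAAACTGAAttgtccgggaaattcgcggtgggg
The capitals cover 2 overlapping matches that begin 11 and 17 bases after the start site. The second MX1 window holds no match, and the third holds 1, in the reverse orientation, that begins at position -195 relative to its start site.

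MX2 was nearly silent before treatment, with 13, 11 and 9 counts in the control libraries of WT/HAQ, WT/- and HAQ/-, and 2405, 1318 and 720 after cGAMP. On the normalized scale these treated levels were 2286, 1760.4 and 788. Its folds of 199 (116 to 341), 171 (95.5 to 308) and 100.4 (52.6 to 192) have wide intervals set by the few control counts. The log2 difference in response between WT/- and HAQ/- was 0.77, with an interval of -0.48 to 2.03, so a difference was not detectable at this depth from the fold. The treated levels themselves were less uncertain, and MX2 in HAQ/- was at 0.448 of its level in WT/- (0.409 to 0.490).

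RSAD2 (ENSG00000134321, chromosome 2, 6865557 to 6898239, plus strand) and CMPK2 (ENSG00000134326, 6840570 to 6866635, minus strand) are annotated head to head, and their spans share 1079 bases. Whether the counting used strand is not given in the sources used here, so reads in the shared bases may have been counted for either gene. RSAD2 had normalized counts of 50.4 and 21619 in WT/HAQ, 45.7 and 6498 in WT/-, and 46.2 and 2616 in HAQ/-. The control levels lay within counting error of each other, and the treated levels fell in steps from the parent to WT/- to HAQ/-. The folds were 429 (331 to 556), 142 (107 to 188) and 56.6 (43.1 to 74.2), and in WT/HAQ the log2 fold of 8.75 stood at the 99.9th percentile of all tested genes. Against the parent, the treated level was 0.301 in WT/- (0.291 to 0.310) and 0.121 in HAQ/- (0.116 to 0.126).

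CMPK2 had normalized counts of 19.4 and 1754.5 in WT/HAQ, 18.7 and 776 in WT/-, and 25.3 and 536 in HAQ/-. It showed the order of RSAD2 at a lower level. The folds were 90.2 (59.4 to 137), 41.6 (26.7 to 64.7) and 21.2 (14.6 to 30.8). Treated CMPK2 was at 0.442 of the parent level in WT/- (0.403 to 0.485) and at 0.306 in HAQ/- (0.277 to 0.338). NRIR, a long noncoding RNA gene 105 bases from CMPK2 on the same strand, had 4 counts in the treated WT/HAQ library and 0 in the other libraries, which allows up to 3 counts in each.

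Windows of both genes are shown because RSAD2 and CMPK2 share promoter sequence. The first RefSeq window of RSAD2 overlaps the first of 3 CMPK2 windows over 165 bases (chr2:6865770-6865934) and the second over 77. The ISRE core was found in the first CMPK2 window and not in the other 2. That first CMPK2 window (chr2:6865770-6866069, minus strand) and a second RSAD2 window further inside the gene (chr2:6877527-6877826, plus strand) read as follows, with the ISRE core or its reverse complement in capitals.
CMPK2: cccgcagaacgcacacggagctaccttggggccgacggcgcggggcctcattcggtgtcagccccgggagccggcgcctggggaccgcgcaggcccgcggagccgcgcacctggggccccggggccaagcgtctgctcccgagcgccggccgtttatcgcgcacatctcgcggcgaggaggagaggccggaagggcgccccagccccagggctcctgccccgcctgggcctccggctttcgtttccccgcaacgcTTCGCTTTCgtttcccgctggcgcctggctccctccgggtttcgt
RSAD2: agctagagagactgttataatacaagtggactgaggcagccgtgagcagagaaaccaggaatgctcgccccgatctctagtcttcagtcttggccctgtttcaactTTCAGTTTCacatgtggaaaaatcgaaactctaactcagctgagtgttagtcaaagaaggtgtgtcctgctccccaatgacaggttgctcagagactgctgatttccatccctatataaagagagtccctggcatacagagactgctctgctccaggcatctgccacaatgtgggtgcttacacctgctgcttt
The CMPK2 match lies in the shared bases and is therefore also in the first RSAD2 window, where it begins 79 bases before that start site. The match in the second RSAD2 window begins 144 bases before the start site.

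BST2 (ENSG00000130303, chromosome 19, 17402939 to 17405630, minus strand) was expressed before treatment. Its normalized counts were 1177 and 3023 in WT/HAQ, 1629 and 3891 in WT/-, and 1345 and 2359 in HAQ/-. The WT/- line was highest both before and after cGAMP. The folds were 2.57 (2.41 to 2.74), 2.39 (2.25 to 2.53) and 1.75 (1.64 to 1.87). The response of the parent exceeded that of WT/- by 0.10 on the log2 scale, with an interval of -0.02 to 0.23 that includes 0, and that of HAQ/- by 0.55 (0.42 to 0.68). The BST2 window is shown because its 2 overlapping matches lie upstream of the start, 130 and 124 bases before it (chr19:17405581-17405880, minus strand).
BST2: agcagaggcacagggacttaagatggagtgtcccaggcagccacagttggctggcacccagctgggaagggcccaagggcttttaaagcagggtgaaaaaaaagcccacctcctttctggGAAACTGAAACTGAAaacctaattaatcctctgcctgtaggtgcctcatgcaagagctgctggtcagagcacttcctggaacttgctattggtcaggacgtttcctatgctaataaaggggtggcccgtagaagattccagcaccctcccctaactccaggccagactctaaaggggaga

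IFITM1 (ENSG00000185885, 310041 to 315272), IFITM2 (ENSG00000185201, 303655 to 309397) and IFITM3 (ENSG00000142089, 319676 to 329475) form a cluster on chromosome 11, with IFITM3 on the minus strand and the others on the plus strand. IFITM1 acts mainly at the plasma membrane, and IFITM2 and IFITM3 at endosomes. IFITM1 had normalized counts of 84.9 and 1247 in WT/HAQ, 253 and 1933 in WT/-, and 199.8 and 1119.8 in HAQ/-. Its control level differed more between lines than that of any other member, at 2.98 times the parent level in WT/- (2.36 to 3.76) and 2.35 times in HAQ/- (1.86 to 2.99). After cGAMP the ratios to the parent were 1.55 (1.44 to 1.67) and 0.898 (0.828 to 0.974). The folds were accordingly 14.7 in the parent (11.9 to 18.1), 7.64 in WT/- (6.71 to 8.70) and 5.61 in HAQ/- (4.86 to 6.47).

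IFITM3 had normalized counts of 3772 and 7480.1 in WT/HAQ, 5682 and 9205 in WT/-, and 3606 and 5345 in HAQ/-. The folds were 1.98 (1.91 to 2.06), 1.62 (1.57 to 1.68) and 1.48 (1.42 to 1.54). IFITM2 went from 1929 to 2709.7 in WT/HAQ, from 2534 to 3645 in WT/- and from 1703 to 2367 in HAQ/-. Its folds of 1.40 (1.33 to 1.49), 1.44 (1.36 to 1.52) and 1.39 (1.31 to 1.48) were the ones that differed least between the lines. The log2 difference in response between WT/- and HAQ/- was 0.05 for IFITM2 (-0.07 to 0.17) and 0.13 for IFITM3 (0.05 to 0.21).

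The deposited values of IFITM2 and IFITM3 were fractional in 6 of 6 libraries, whereas those of the other 6 genes were whole, and the sum of IFITM2 and IFITM3 was whole in every library, from 6086 to 10721. In GENCODE transcripts, 76 stretches of 100 bases occur in both genes and 190 stretches of 75 bases, but none of 150, the length of a read. The split between IFITM2 and IFITM3 is therefore uncertain to an extent the files do not give. Their sum, which does not depend on the split, had log2 folds of 0.84 in WT/HAQ (0.79 to 0.88), 0.65 in WT/- (0.60 to 0.69) and 0.54 in HAQ/- (0.49 to 0.59). IFITM3 took 66.2% to 73.4% of it. IFITM1 shares 246 stretches of 100 bases and 41 of 150 with IFITM3, and 122 of 100 but none of 150 with IFITM2, and all its values were whole.

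The windows of IFITM1 (chr11:313790-314089, plus strand) and IFITM3 (chr11:320811-321110, minus strand) are shown together because they are alike in sequence while the genes differed in level and fold.
IFITM1: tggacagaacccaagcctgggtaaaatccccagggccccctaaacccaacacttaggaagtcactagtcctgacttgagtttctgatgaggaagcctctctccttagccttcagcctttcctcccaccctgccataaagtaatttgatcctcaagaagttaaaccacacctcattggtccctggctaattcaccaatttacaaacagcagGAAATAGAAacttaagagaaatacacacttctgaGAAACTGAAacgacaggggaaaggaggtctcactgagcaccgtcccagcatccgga
IFITM3: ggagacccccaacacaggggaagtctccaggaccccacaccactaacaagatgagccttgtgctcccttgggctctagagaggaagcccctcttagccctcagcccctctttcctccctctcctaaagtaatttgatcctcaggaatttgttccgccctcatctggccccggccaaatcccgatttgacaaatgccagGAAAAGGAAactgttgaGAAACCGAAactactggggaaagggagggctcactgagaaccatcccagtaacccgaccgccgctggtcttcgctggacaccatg
In an alignment 197 of the 300 bases were identical (65.7%), against 151 (50.3%) between the windows of IFITM1 and BST2. The matches begin 40 and 6 bases before the start site in IFITM1 and 52 and 35 bases before it in IFITM3.

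Over the members, the ISRE core was searched on both strands in the 11 windows of the 6 genes that had one, and it was found in 8 windows and in all 6 genes. Over all RefSeq windows of this length it was found in 8.11%, and 9.86% of genes had it in at least 1 window. The core of the gamma-activated site, TTCNNNGAA, was found in 3 of the 11 windows and 3 of the 6 genes, against 7.66% of all windows and 9.38% of all genes. IFITM2 and MX2 had no window here. A match of letters is a description of sequence and does not show binding.

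**Figure D3:**
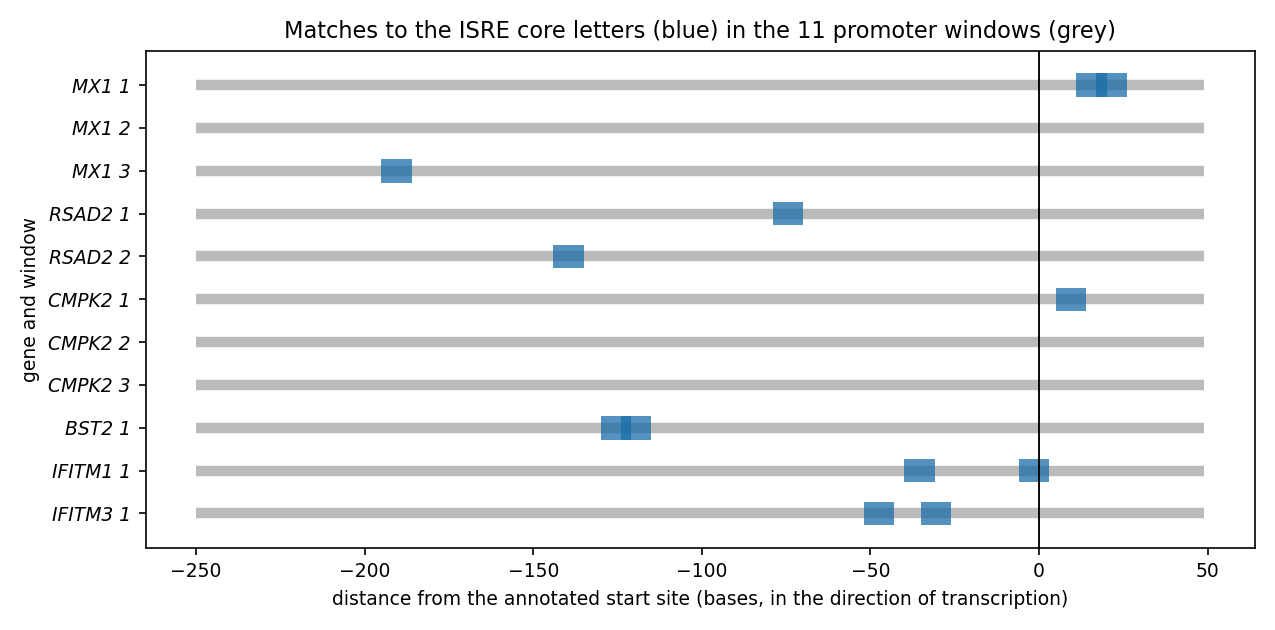
Positions of the ISRE core matches (blue, 9 bases each) in the 11 promoter windows (grey, 250 bases before to 50 bases after each start site), against distance from the start site in bases. MX1 (first window) and CMPK2 have matches just after a start site, the third MX1 window has 1 at -195, IFITM1 and IFITM3 within 52 bases before it, and BST2 farther upstream.

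Levels can be compared between genes only per length. Per kilobase of merged annotated exon, the control library of WT/HAQ ranked IFITM3 (1326 normalized counts per kilobase), IFITM2 (1201) and BST2 (1069) far above IFITM1 (50.9), RSAD2 (8.90), MX1 (7.18), CMPK2 (4.43) and MX2 (0.789). In the treated WT/HAQ library, RSAD2 was at the top of this order at 3820.3 per kilobase, ahead of BST2 (2746) and IFITM3 (2630.1), with MX1 at 916 and MX2 lowest at 157. In the treated clones BST2, IFITM3, IFITM2 and IFITM1 stood above RSAD2, which was at 1148 in WT/- and 462 in HAQ/-, where BST2 was at 3534 and 2142.5. The order at the top also depends on the length used. Per kilobase of the longest annotated transcript in the treated WT/HAQ library, IFITM3 led at 7165, before RSAD2 at 4455, and MX1 reached 2851, while MX2 remained lowest at 562.

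A quasi-likelihood F test in edgeR, blocked by line, was used for the average effect of cGAMP over the 3 lines. It had 2 residual degrees of freedom, and p-values were adjusted by Benjamini-Hochberg over all tested genes. All 8 members were called higher, as were 344 of 15126 genes (2.27%). The log2 fold change of MX2 averaged 7.30 ± 0.17 (derived SE, edgeR adjusted p = 0.00105). Each SE, here and in the next test, is the absolute log2 fold change divided by the square root of F. It restates the test and is no separate measure of spread. RSAD2 had the same average, 7.30, with a larger error of 0.61 (edgeR adjusted p = 0.00999). MX1 averaged 5.95 ± 0.39 and CMPK2 5.46 ± 0.36, both at an edgeR adjusted p of 0.0062. IFITM1 averaged 3.06 ± 0.27 (edgeR adjusted p = 0.0111) and BST2 1.14 ± 0.12 (edgeR adjusted p = 0.0178). The smallest averages were those of IFITM3, 0.75 ± 0.10 (edgeR adjusted p = 0.0296), and IFITM2, 0.50 ± 0.06 (edgeR adjusted p = 0.0279). The calls rest on the lines used: without WT/- 0 members and 0 genes passed in edgeR's test (950 higher and 944 lower genes at an unadjusted p under 0.05), without WT/HAQ 5 members did (not BST2, IFITM2 or IFITM3), and without the block 4 did (MX1, MX2, RSAD2 and CMPK2). DESeq2's Wald test called all 8.

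To ask whether HAQ/- responded less than the lines with a WT allele, the difference in response was tested in the same framework, with 1 residual degree of freedom. HAQ/- is 1 line here, so the spread behind every call of this test is the difference in response between WT/HAQ and WT/-, with a variance shared across genes, and nothing measures how far a second HAQ/- clone would differ. No member passed, beside 153 genes called with a smaller response in HAQ/- (1.01%). At an unadjusted p under 0.05, 4 members had a smaller response in edgeR's test, RSAD2, CMPK2, BST2 and IFITM1, where 5.50% of tested genes did, and 2 in DESeq2's Wald test, CMPK2 and IFITM1, where 2.91% did. RSAD2 had the largest difference, -2.21 ± 0.55 on the log2 scale (edgeR adjusted p = 0.140), and it passed (edgeR adjusted p = 0.00379) when genes averaging 1 count or more were all fitted. It did not pass in the other 4 alternatives, at adjusted p of 0.272 with DESeq2 size factors, 0.268 with total counts and 0.114 with genes averaging 50 counts or more in edgeR's test, and 1.0 in DESeq2's Wald test. CMPK2 followed at -1.61 ± 0.46 (edgeR adjusted p = 0.210), then MX2 at -0.90 ± 0.48 and IFITM1 at -0.86 ± 0.34. BST2 (-0.50), MX1 (-0.40), IFITM3 (-0.27) and IFITM2 (-0.03) were nearer 0. The adjusted p of the members other than RSAD2 and CMPK2 ranged from 0.302 to 0.999 in edgeR's test.

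Between lines, differences already stood in the control libraries. In WT/-, IFITM1, MX1 and IFITM3 were at least 1.5-fold above the parent, where 13.0% of tested genes were. The IFITM3 ratio of 1.51 (1.45 to 1.57) was just past the threshold, and with total counts it fell short of it, at 0.56 on the log2 scale. HAQ/- had 1 such member, IFITM1, where 7.37% of tested genes were above the parent. RSAD2, CMPK2 and MX2 did not differ beyond counting error between any pair of control libraries. Of 43 other antiviral effectors tested, 19 were at least 1.5-fold higher and 1 lower in the WT/- than in the parent control library, and 3 were higher and 5 lower in the HAQ/- control library.

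The treated libraries of WT/- and WT/HAQ separated the members. RSAD2, CMPK2 and MX1 were at least 1.5-fold lower in WT/-, as were 9.89% of tested genes, with log2 ratios of -1.73 (-1.78 to -1.69), -1.18 (-1.31 to -1.04) and -1.04 (-1.08 to -0.999). MX2 was lower by a smaller margin, at -0.38 (-0.47 to -0.28), and BST2, IFITM1, IFITM2 and IFITM3 were higher, at 0.36, 0.63, 0.43 and 0.30. Among the 43 other effectors the median ratio was 0.00, none was 1.5-fold lower, and the lowest was APOBEC3F at -0.49, a gene named after its value was seen. These are single libraries, so no test of this difference could be made.

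In the step from WT/- to HAQ/-, 6 members were at least 1.5-fold lower in the treated library (BST2, IFITM1, IFITM2, IFITM3, MX2 and RSAD2), where 19% of tested genes were. Their log2 ratios ranged from -0.62 for IFITM2 to -1.31 for RSAD2. For IFITM2 and IFITM3 much of this gap already stood in the control libraries, at -0.57 and -0.66 for HAQ/- over WT/-, against -0.62 and -0.78 with cGAMP. With libraries scaled by total counts, BST2 and IFITM2 fell short of the threshold, at 0.57 and 0.47 for WT/- over HAQ/-. CMPK2, at -0.53, was just short of the threshold. MX1 was at -0.11 (-0.16 to -0.06), and this sign turned to higher in HAQ/- by 0.04 when libraries were scaled by total counts, which moves all ratios of this pair by 0.15. Of the other effectors, 32 of 43 were at least 1.5-fold lower in HAQ/- and the median was -1.01. Both of these comparisons use the treated WT/- library.

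**Figure D4:**
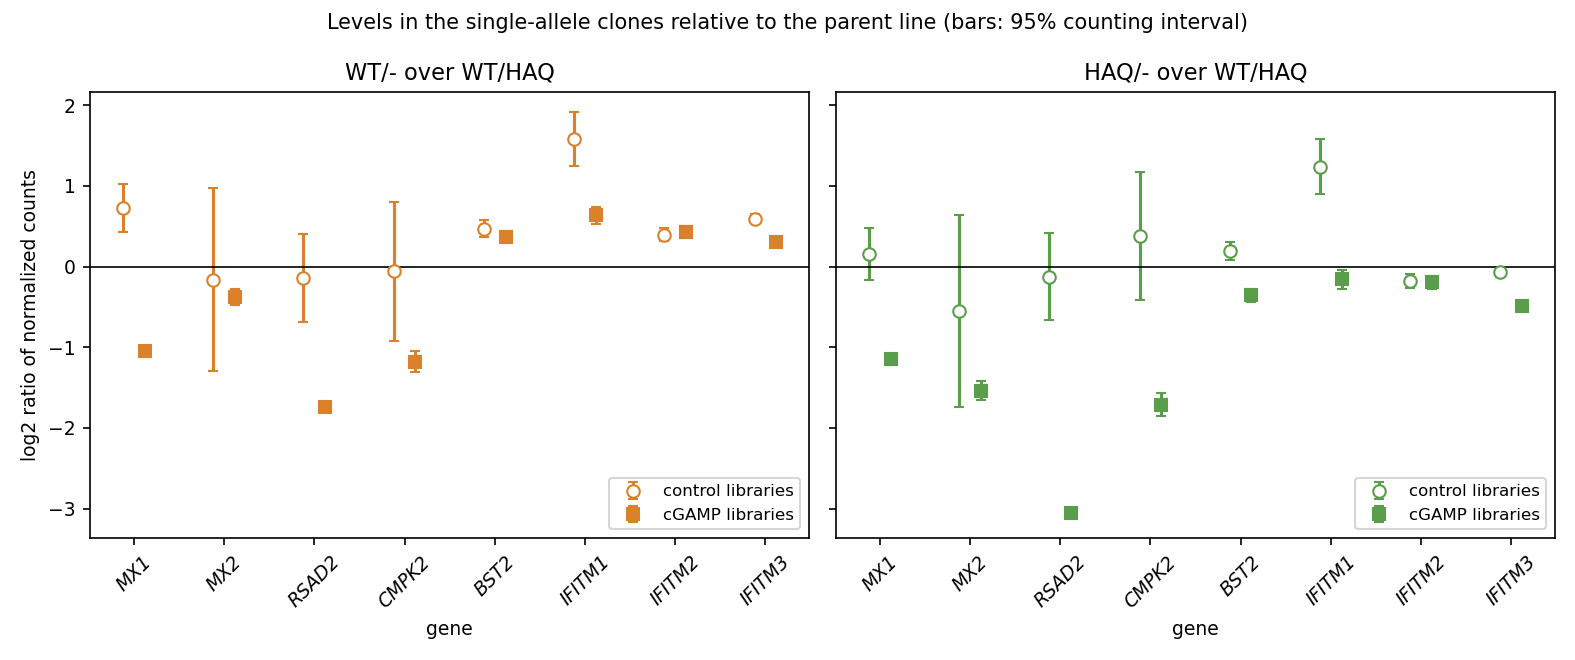
log2 ratio of normalized counts of each gene in WT/- (left) and HAQ/- (right) over the WT/HAQ parent, in control libraries (open circles) and cGAMP libraries (filled squares), with 95% counting intervals. RSAD2 lies near 0 in both control panels and at -1.73 and -3.05 after cGAMP, and IFITM1 lies at 1.58 and 1.24 there before treatment.

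**Figure D5:**
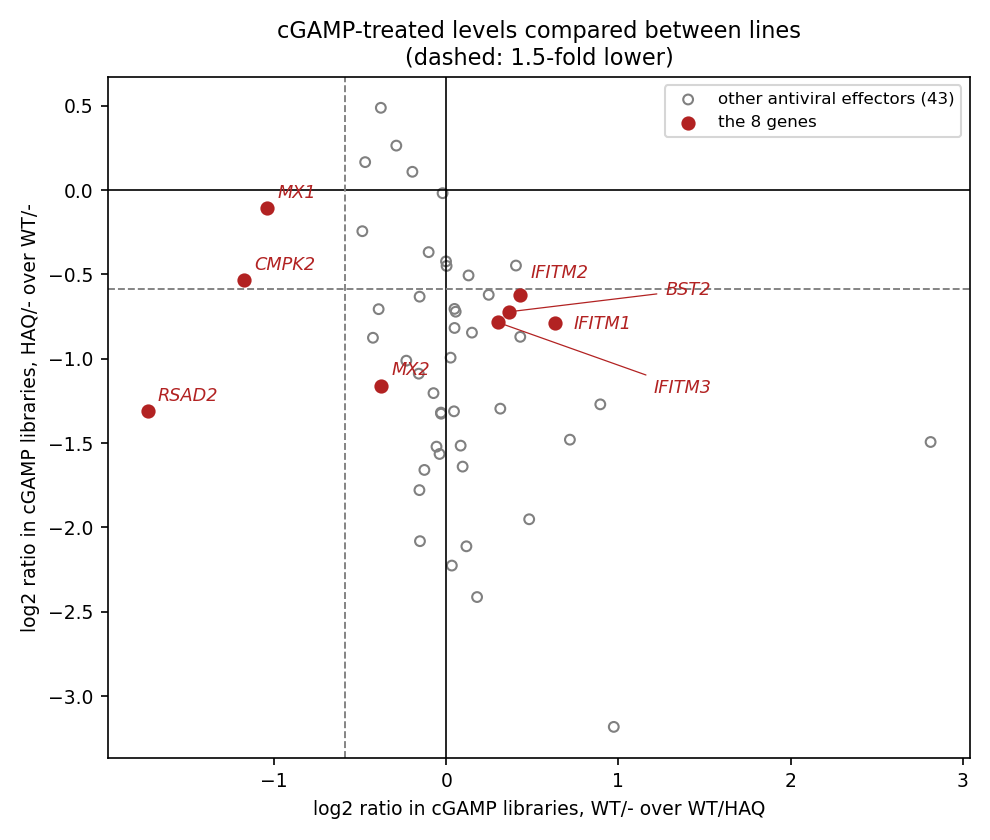
log2 ratios between treated libraries, WT/- over WT/HAQ (horizontal) and HAQ/- over WT/- (vertical), for the 8 genes (red) and 43 other antiviral effectors (grey); dashed lines mark 1.5-fold lower. RSAD2, CMPK2 and MX1 lie left of the vertical dashed line, and the grey points lie to its right.

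The other genes of the pathway gave the setting of these values. Of the 43 other antiviral effectors, 33 were called higher with cGAMP in edgeR's test and 0 lower (39 and 0 at an unadjusted p under 0.05), with median log2 folds of 3.01, 2.53 and 2.26 in WT/HAQ, WT/- and HAQ/-. The largest mean folds were those of OASL, an OAS-like protein (8.47, 7.69 and 6.33 on the log2 scale), IFIT2 (8.34, 7.22 and 6.10) and IFIT1 (8.05, 6.76 and 5.73), the IFIT proteins being binders of viral RNA. The smallest were those of the cytidine deaminases APOBEC3B (0.38, 0.18 and -0.70) and APOBEC3C (-1.40, -0.13 and 2.03) and of SERINC3 (-0.04, -0.04 and 0.00), none of which passed the test. Responses were larger in HAQ/- than in WT/- for 9 of these 43 genes, as for MX1, and 6 were called with a smaller response in HAQ/-, among them OASL.

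Of 19 interferon and signalling genes tested, 12 were called higher and 1 lower, IRF3, which was named after its value was seen. IFNB1, the gene of interferon beta, had 5 and 1325 counts in WT/HAQ, 2 and 1934 in WT/-, and 6 and 15 in HAQ/-. IFNL1, a type III interferon gene, had 4 and 1575, 4 and 1633, and 7 and 17. In the HAQ/- line both thus stayed at 17 counts or fewer where MX1 reached 6781 and RSAD2 2390 counts, and IFNB1 and IFNL1 were the genes of this list called with a smaller response in HAQ/-. In the treated WT/- library IFNB1 and IFNL1 were above the parent, by 1.04 and 0.54 on the log2 scale, where RSAD2, CMPK2 and MX1 were below it. Of the factors that carry the interferon signal to the nucleus, STAT2 had log2 folds of 3.24, 2.55 and 1.80 and IRF9 of 2.84, 1.38 and 2.33 in WT/HAQ, WT/- and HAQ/-. IRF9 and MX1 both had the smaller fold in WT/- than in HAQ/-, and both had a higher control level in WT/- than in the other lines, with IRF9 at 188, 545 and 190.2 normalized counts.

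None of the 7 relatives tested, among them IFITM10 and dynamin genes, was called in edgeR's test, in which 0 were higher and 1 was lower at an unadjusted p under 0.05. Of 7 tested neighbours on the same chromosomes (most within 50 kb of a member), 2 were called higher. CTD-2521M24.5 (CCDC194 in GENCODE), which lies near BST2, had 1 and 68 counts in WT/HAQ, 2 and 68 in WT/-, and 3 and 33 in HAQ/-. RNF144A, a ubiquitin ligase gene downstream of RSAD2, had log2 folds of 1.06, 0.66 and 0.69 (edgeR adjusted p = 0.0345). The others, MVB12A and PLVAP near BST2 and ATHL1 (PGGHG in GENCODE), B4GALNT4 and PTDSS2 on the side of the IFITM cluster, did not pass. MVB12A starts 91 bases from BST2 on the other strand and had log2 folds of 0.13, 0.29 and 0.23.

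Among 5412 tested genes that varied by at least 1 on the log2 scale, those whose pattern over the 6 libraries was most like the mean of the members were DDX60 (Pearson r = 0.9996), RNF122 (0.9987) and IFIT1 (0.9986). The 6 points form a control and a treated cluster and share their libraries and scaling. These values describe the shape of a pattern over the libraries and say nothing of the size of the step. The closest gene was DUOXA2 for MX1, RNF122 for MX2, DDX60 for RSAD2, EIF2AK2 for CMPK2, ADAR for BST2, RAB7B for IFITM1, CASP10 for IFITM2 and IRX3 for IFITM3, at r from 0.990 to 0.9998. Within the members, RSAD2 and CMPK2 were the pair most alike (0.997), and CMPK2 and IFITM2 the least (0.682).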

How the data were processed

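RNA-seq libraries were made with an mRNA TruSeq kit and read as 150-base pairs. The authors deposited expected counts per Ensembl gene, which are estimated counts without normalization. Per the labels' processing notes, STAR and RSEM were used with GRCh38 (hg38); the annotation release is not given in the sources used here. Counts were rounded and scaled by TMM over the 15126 genes that averaged at least 10 counts. Normalized counts were set to a common depth, the geometric mean of the libraries' effective sizes. A fold is the treated over the untreated library within a line, and counts below 3 were raised to 3 for it. Intervals are 95% Wilson intervals, or their combination for a difference of folds. Tests used edgeR 4.0.16 in R 4.3.3 (Benjamini-Hochberg adjusted p under 0.05), with DESeq2 1.42.0 as an alternative. Other steps were run in Python 3.11.15 (pandas 2.3.3, numpy 2.4.6, matplotlib 3.10.9). The edgeR fits and the motif search were tested on simulated data with planted changes or matches. The simulated counts did not include the spread of response between lines seen here. Positions and exon lengths are from GENCODE release 44, and promoter windows from RefSeq.

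The 8 genes and the lists were chosen with earlier results of these data known. Lists held other antiviral effectors (45 in the table, 43 tested), interferon and signalling genes (21 and 19), relatives (9 and 7), neighbours (30 and 7), markers of the line (9 and 9) and of other cell types (8 and 3). Of these, the 3 effectors with the largest and the 3 with the smallest mean fold, IFNB1, IFNL1, STAT2, IRF9, STING1, the tested neighbours and the genes most like the members were named by rule, and 1 gene under the rule is not reported here. Where nothing says that libraries came from separate cultures, p-values measure only the spread between these libraries.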

Additional observations from a re-analysis of the deposited data

How the results depend on the processing

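With 3 lines and 1 library per condition, the tests have 2 and 1 residual degrees of freedom. The number of genes higher with cGAMP over the lines was 344. It became 583 with a mean count of at least 1, 772 with DESeq2's Wald test and 58 without the line block, and with each line left out in turn it ranged from 0 (without WT/-) to 1282 (without HAQ/-), with 136 without WT/HAQ. The number of members called was 8 of 8 with DESeq2 size factors, total counts, mean counts of at least 1 or 50 and DESeq2's Wald test. It was 4 without the line block and ranged from 0 to 8 with a line left out, at 5 without WT/HAQ and 0 without WT/-; a fit of 2 lines has fewer libraries, and the cause of the differences between lines left out was not tested. Every member kept its direction in the 9 alternatives. The genes with a smaller response in HAQ/- numbered 153, against 96 with DESeq2 size factors, 98 with total counts and 351 with a mean count of at least 1; the cause was not tested. Counts of members raised at least 1.5-fold and the median log2 folds stayed within 1.5 times and within counting error. Of 144 alternative values of single folds, 143 lay within the counting interval, the exception being IFITM3 in WT/-, at a log2 fold of 0.63 with total counts. Of 144 alternative ratios between lines, 19 lay outside it, all with total counts. The line paired each treated library with its control, and the fit without the line block is the unpaired one. Counts of 9 to 29 in the control libraries limit the folds of MX2 and CMPK2.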
